A study of Mus musculus with 15 samples.

Results

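The genes described here are 7 marker genes of the CA fields of the mouse hippocampus, measured in RNA-seq of tissue dissected as dentate gyrus (DG). They were chosen as the rows of the deposited count files with the symbols *Wfs1*, *Fibcd1*, *Pou3f1*, *Iyd*, *Rgs14*, *Amigo2* and *Pcp4*, by a rule that names symbols and uses no measured value, and all 7 were present among 32657 features. The question was at what level such transcripts were found in each dissection, and which of them were also present on the tagged ribosomes.

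All animals were 8 to 12 weeks old and carried Drd3-Cre KI198 together with Rosa26-fsTRAP, so that cells with Cre expressed the ribosomal protein L10a fused to EGFP. The KI198 driver is a BAC transgene that did not fully follow *Drd3*. By the records it acted in granule cells and hilar mossy cells, and by the study's histology also in subsets of dorsal CA1, dorsal CA3 and ventral CA3 cells and in few ventral CA1 cells. WT animals had an intact serotonin receptor gene *Htr4*, while cKO animals also carried Htr4-Floxed alleles, in which Cre removes exon 5. Translating ribosome affinity purification (TRAP) pulls down EGFP-bound ribosomes with their mRNA (IP), and the input is RNA of the same kind of homogenate before the pull-down. The 6 groups were WT vDG IP (n = 3), cKO vDG IP (n = 2), WT vDG input (n = 3), cKO vDG input (n = 2), WT dDG input (n = 3) and cKO dDG input (n = 2), where vDG and dDG are ventral and dorsal DG. There was no dDG IP among the samples analysed here. Each library came from pooled animals, given as 1 male and 1 female in the methods and as 3 mice per IP and 2 per input in the records.

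The pyramidal cells of the hippocampus lie in the fields CA1, CA2 and CA3, which adjoin each other and the DG, so that a dissection of the DG can take along parts of them. CA1 sends the main output of the hippocampus, CA3 receives the mossy fibers of the granule cells, and CA2 lies between both and is known for its role in social memory. Many field markers also differ along the dorsoventral axis or are expressed by other cells, and *Pcp4* is also known from granule cells.

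Among the markers of CA1, *Wfs1* encodes wolframin, a membrane protein of the endoplasmic reticulum, *Fibcd1* encodes a chitin-binding receptor with a fibrinogen C domain, and *Pou3f1* encodes a POU-domain transcription factor. *Rgs14* encodes a scaffold that regulates G protein signaling, *Amigo2* an adhesion molecule and *Pcp4* a regulator of calmodulin, and all of these are known markers of CA2. *Iyd* encodes iodotyrosine deiodinase and is not assigned to a field here. No member is a marker of CA3 alone, and CA3 was therefore read from a separate list.

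Total counts on genes ranged from 19039295 to 30451430 per library. *Prox1*, the transcription factor that defines granule cells, lay between 630.1 and 1030.5 CPM (counts per 1000000 counts on genes, after TMM scaling of the library sizes) in all 15 libraries. *Trhr*, a marker of ventral DG, was at 14.6 to 31.8 CPM in vDG libraries and at 0.117 to 0.719 CPM in dDG inputs. *Lct*, the study's marker of dorsal DG, did not split as far. It was at 128 to 180 CPM in dDG inputs, 29.7 to 48.3 CPM in vDG inputs and 58.4 to 88.2 CPM in vDG IPs. In the records the source of the inputs is given as cortex, against titles and region labels that give DG. Cortical layer markers summed to 257 to 338 CPM over the 10 inputs and to 233 to 304 CPM over the vDG IPs. Which cells these transcripts came from was not tested. Counts on *Htr4* covered the whole gene and do not show exon 5. They were 13.5 to 18.5 CPM in WT vDG libraries and 27.0 to 30.2 CPM in cKO vDG libraries. In dDG inputs they were 24.8 to 33.9 CPM in WT and 46.6 to 51.5 CPM in cKO. The choroid plexus gene *Ttr* was at 72.3 and 119.7 CPM in WT dDG inputs 2 and 3 and at or below 11.5 CPM in all other libraries. Reads that matched more than 1 gene made up 2.50 to 2.75% in the IPs and 5.62 to 8.60% in the inputs.

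To compare the members with each other, CPM were divided by the exonic length in kb of each gene in GENCODE M21 (GRCm38, the assembly also called mm10). *Wfs1* (chr5:36966104-36989205, minus strand) had the highest level per length in 5 of 6 groups, from 3.44 ± 0.865 CPM per kb (SD, n = 2) in cKO dDG inputs to 8.55 ± 0.352 (SD, n = 3) in WT IPs. In WT dDG inputs *Rgs14* (chr13:55369732-55384687, plus strand) stood at 4.52 ± 0.813 CPM per kb and *Wfs1* at 4.26 ± 0.172 (SD, n = 3 each), which differed by less than the spread between libraries. In cKO dDG inputs *Iyd* stood at 3.37 ± 0.243 CPM per kb (SD, n = 2), which also differed from *Wfs1* by less than that spread. *Pou3f1* (chr4:124656807-124660655, plus strand) was the lowest of the 7 in every group, at 0.0136 to 0.547 CPM per kb.

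*Rgs14* had group means of 2.70 to 6.48 CPM per kb. *Iyd* (chr10:3540240-3554877, plus strand) ranged from 2.63 to 4.41 CPM per kb, and *Amigo2* (chr15:97244125-97247287, minus strand) from 1.22 to 4.81. *Fibcd1* (chr2:31813290-31846005, minus strand) had 0.509 to 1.75 and *Pcp4* (chr16:96467606-96525793, plus strand) 0.527 to 1.59 CPM per kb. Some values carry uncertainty from neighbouring genes. *Pcp4* shared 23.7% of its exonic bases with *Igsf5*, which had 0 to 5 counts per library. *Amigo2* shared 58 bases with *Pced1b*, which had 90 to 229 counts, and *Pou3f1* shared 330 bases with the antisense gene *Gm2164*, which is not a row of the count files. *Igsf5* lies on the same strand as *Pcp4*, and in the union mode of HTSeq, which the methods name with default settings, reads over bases shared on the counted strand are set aside as ambiguous. The other partners lie on the opposite strand. HTSeq counts by strand by default while the kits named do not mark strand, so how reads from those shared bases were assigned is unclear.

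**Figure D1:**
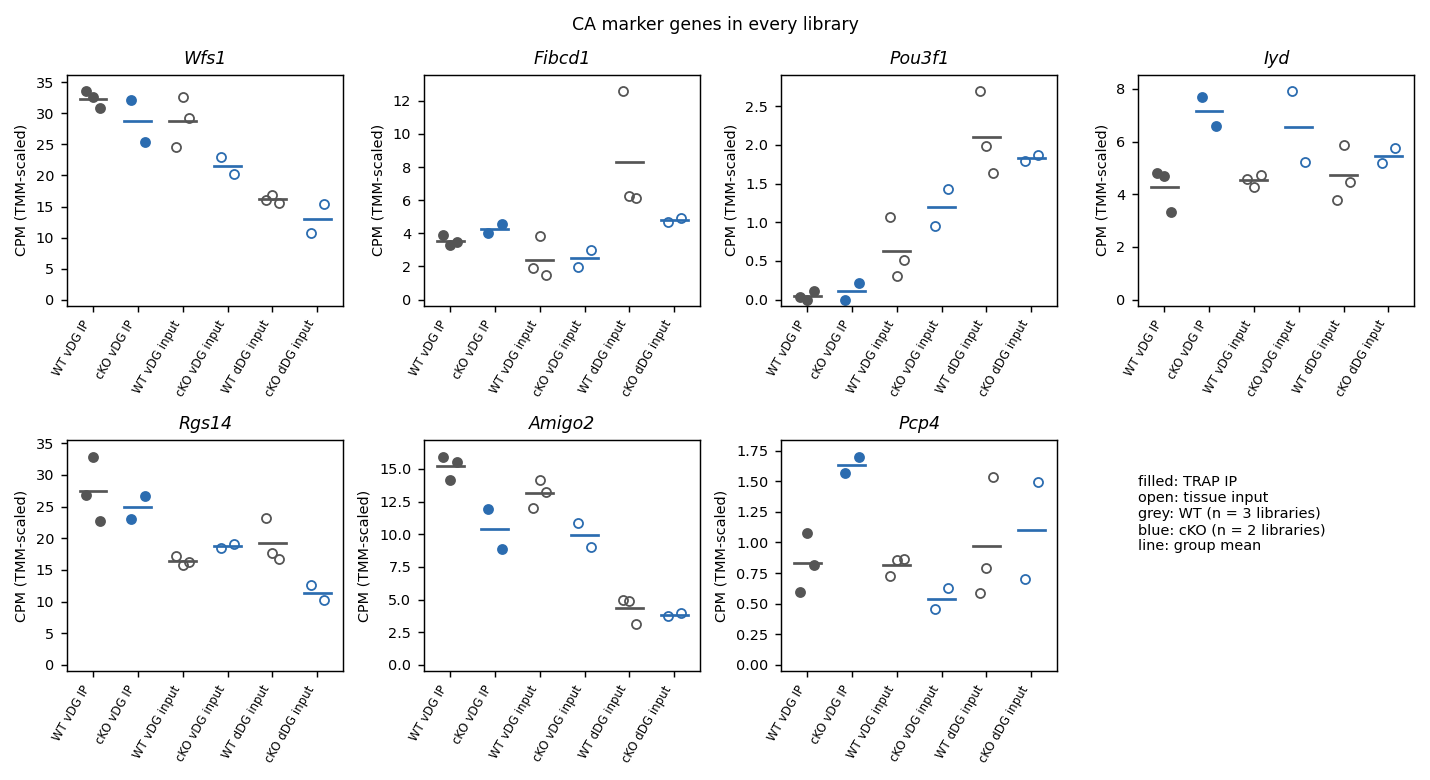
Level of each CA marker gene in every library (TMM-scaled CPM, linear axis; filled points are IPs, open points inputs, grey WT and blue cKO, lines the group means). *Pou3f1* lay at or below 0.213 CPM in all 5 IPs and at or above 0.309 CPM in all 10 inputs, whereas *Wfs1* lay between 25.4 and 33.6 CPM in the IPs.

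IP and input of vDG were compared to see which CA markers were present on the tagged ribosomes. Most members were found in the WT IP at a level near that of the input, *Rgs14* was higher in the IP, and *Pou3f1* was nearly absent from it. Fewer cells of a type and less RNA per cell cannot be told apart in bulk samples such as these. Of 7 members, 6 passed the filter on low counts in WT, and 1 of them was called by edgeR at an FDR under 0.05, beside 23.9% of all 15011 genes tested. The median log2 fold change of the 6 tested members was 0.16, and that of all genes tested was 0.00.

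*Rgs14* counted 26.8, 32.9 and 22.8 CPM in the WT IPs and 17.2, 15.8 and 16.2 CPM in the WT vDG inputs. Every IP lay above every input, which was the case for 39.8% of all genes in either direction. The log2 fold change was 0.72 (SE 0.16, FDR = 0.00443), or 1.64-fold. In cKO, *Rgs14* was at 23.1 and 26.7 CPM in the IPs and at 18.4 and 19.1 CPM in the vDG inputs, with a log2 difference of 0.35 (SE 0.15) that was not called (FDR = 0.102) but passed without cKO IP 1 (FDR = 0.0429) and with a replicate block (FDR = 0.0498).

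*Pou3f1* gave 1, 0 and 3 counts in the WT IPs and 28, 9 and 13 counts in the WT vDG inputs. In cKO it gave 0 and 5 counts in the IPs and 25 and 39 in the vDG inputs. IP and input libraries thus did not overlap in either genotype. With the depth taken into account, the summed counts were 11.8-fold higher in the input in WT (95% exact interval 4.32 to 44.9) and 10.7-fold higher in cKO (4.33 to 33.9), and these intervals cover counting error only. In WT the gene failed the count filter, with 2 of 3 inputs and 0 of 3 IPs over the limit. The settings that tested it took it in through the inputs or without a filter, and their values are given as a description. The log2 fold change was -3.57 (SE 1.11, FDR = 0.00886) in DESeq2 and -3.46 (SE 0.92, FDR = 0.00264) in edgeR without the filter. Over all 7 such settings the FDR ranged from 0.00264 to 0.0421. In cKO it passed the filter through the inputs alone, with 2 of 2 inputs and 0 of 2 IPs over the limit of the filter, so that it could enter the test only where the input was high. Its log2 fold change there, given as a description, was -3.42 (SE 0.93, FDR = 0.0165), which was no longer past the threshold without cKO vDG input 1 (FDR = 0.115) or without input 2 (FDR = 0.226).

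*Wfs1* was abundant in both fractions. In WT it stood at 33.6, 32.6 and 30.9 CPM in the IPs and at 24.6, 32.6 and 29.2 CPM in the inputs, and the groups overlapped. In cKO it stood at 32.1 and 25.4 CPM in the IPs and at 22.9 and 20.2 CPM in the inputs, without overlap. The log2 differences were 0.14 (SE 0.14, FDR = 0.506) in WT and 0.36 (SE 0.16, FDR = 0.116) in cKO, where it passed without IP 2 (FDR = 0.0230) and with a replicate block (FDR = 0.0371).

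*Amigo2* was at 16.0, 14.2 and 15.5 CPM in the WT IPs and at 12.0, 14.2 and 13.2 CPM in the WT inputs. In cKO it was at 11.9 and 8.89 CPM in the IPs and at 10.8 and 9.0 CPM in the inputs. The WT groups met at 14.2 CPM and the cKO groups overlapped, with log2 differences of 0.19 (SE 0.15, FDR = 0.416) and 0.01 (SE 0.22, FDR = 0.973).

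*Fibcd1* was at 3.90, 3.30 and 3.47 CPM in the WT IPs and at 1.91, 3.84 and 1.5 CPM in the WT inputs, where input 2 stood apart. The log2 difference of 0.52 (SE 0.33) was not called (FDR = 0.280), but without WT vDG input 2 it was 1.04 (FDR = 0.0380). In cKO the IPs had 4.00 and 4.55 CPM and the inputs 1.98 and 3.01 CPM, and the log2 difference of 0.72 (SE 0.34) was not called either (FDR = 0.139).

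*Iyd* had 4.81, 4.69 and 3.31 CPM in the WT IPs and 4.6, 4.29 and 4.73 CPM in the WT inputs, and its groups overlapped in both genotypes. The log2 differences were -0.11 (SE 0.23, FDR = 0.760) in WT and 0.07 (SE 0.27, FDR = 0.882) in cKO. *Pcp4* was represented by 12 to 47 counts per library in the whole series. In cKO it was at 1.57 and 1.70 CPM in the IPs and at 0.457 and 0.624 CPM in the inputs, with a log2 difference of 1.53 (SE 0.56) that was not called (FDR = 0.0602), but passed with a filter of 10 counts in every library (FDR = 0.0256) and with all 6 groups in one fit (FDR = 0.0415). In WT the log2 difference of *Pcp4* was -0.01 (SE 0.42, FDR = 0.993).

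In cKO, all 7 members entered the test, *Pou3f1* through the inputs alone, and edgeR called no member other than *Pou3f1*, beside 27.5% of 15126 genes. At an unadjusted p under 0.05 it held 4 of 7 members, *Pou3f1* among them, beside 5880 of 15126 genes. DESeq2 called 1 member, which was also *Pou3f1*, beside 3825 of 17366 genes. The groups did not overlap for 5 of 7 members, beside 64.9% of all genes. The median log2 fold change of the members was 0.35, against -0.03 over all genes. A test of the interaction of genotype and fraction called no member and 0% of 16093 genes in edgeR. At an unadjusted p under 0.05 it held 497 genes and 1 member, *Pcp4* (FDR = 1.0), and DESeq2 called no member.

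Other CA markers gave a setting for these values. Of 6 other CA1 markers, 5 were tested and all had lower values in the WT IP, 2 of them past the threshold. *Mpped1*, a metallophosphoesterase-domain gene, fell by 2.64 on the log2 scale (SE 0.26, FDR = 4.81e-06). The other was *Spink8*, a serine protease inhibitor gene with a log2 fold change of -1.61, which entered the test through the inputs alone, with 3 of 3 inputs and 1 of 3 IPs over the filter, so that this value is a description. In cKO *Mpped1* fell by 2.21 (FDR = 7.72e-05) and was the 1 gene called of 5 tested. *Mpped1* had 1.19 to 3.09 CPM in the 5 IPs and 8.87 to 13.1 CPM in the 5 vDG inputs. The list of other CA1 markers summed to 7.33 to 10.7 CPM in the IPs and 19.5 to 22.2 CPM in the vDG inputs.

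None of the 4 tested of 6 other CA2 markers was called in either genotype, with median log2 fold changes of 0.21 in WT and 0.03 in cKO. The 6 CA3 markers summed to 577 to 705 CPM in the IPs and 552 to 687 CPM in the vDG inputs. None of them was called in WT. In cKO the calcium-dependent membrane-binding protein gene *Cpne4* rose by 0.39 on the log2 scale (FDR = 0.0103) and *Nnat* fell by 0.37 (FDR = 0.0339). *Neurod6*, a transcription factor gene of CA pyramidal cells, was at 259.6 to 370.2 CPM in the WT IPs and at 182 to 262 CPM in the WT inputs, which overlapped (FDR = 0.115), and it rose in the cKO IPs by 0.58 (FDR = 0.00442).

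Several lists of markers of other cells moved with the fraction. All 6 granule cell markers had higher values in the IP in both genotypes, 3 of them called in WT and 6 in cKO. None of the 3 mossy cell markers was called. All markers of interneurons, astrocytes, oligodendrocytes and microglia had lower values in the WT IP. Called lower were 4 of 5 interneuron markers, 4 of 4 astrocyte markers, 3 of 4 oligodendrocyte markers and 4 of 4 microglia markers, with list medians of -2.63, -2.98, -2.77 and -3.25 on the log2 scale. Of the genes called, *Pvalb*, *Mog*, *Cx3cr1* and *Tmem119* entered the test through the inputs alone, with 1 or 2 of 3 IPs over the filter. The astrocyte list summed to 20.6 to 32.8 CPM in the IPs and 170.0 to 245 CPM in the vDG inputs. Every gene of these lists had counts in the IPs of both genotypes. Other lists were mixed in the WT IP. Of 6 cortical layer markers, 3 were called higher and 2 lower. Neither of 2 tested endothelial markers was called, with *Flt1* at 0.60 and *Cldn5* at -0.90. Of 2 tested choroid plexus markers, *Kl* was at 0.07 and *Ttr*, which entered through the inputs alone, at -2.94. The part of all these cells in the members' values was not tested.

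**Figure D2:**
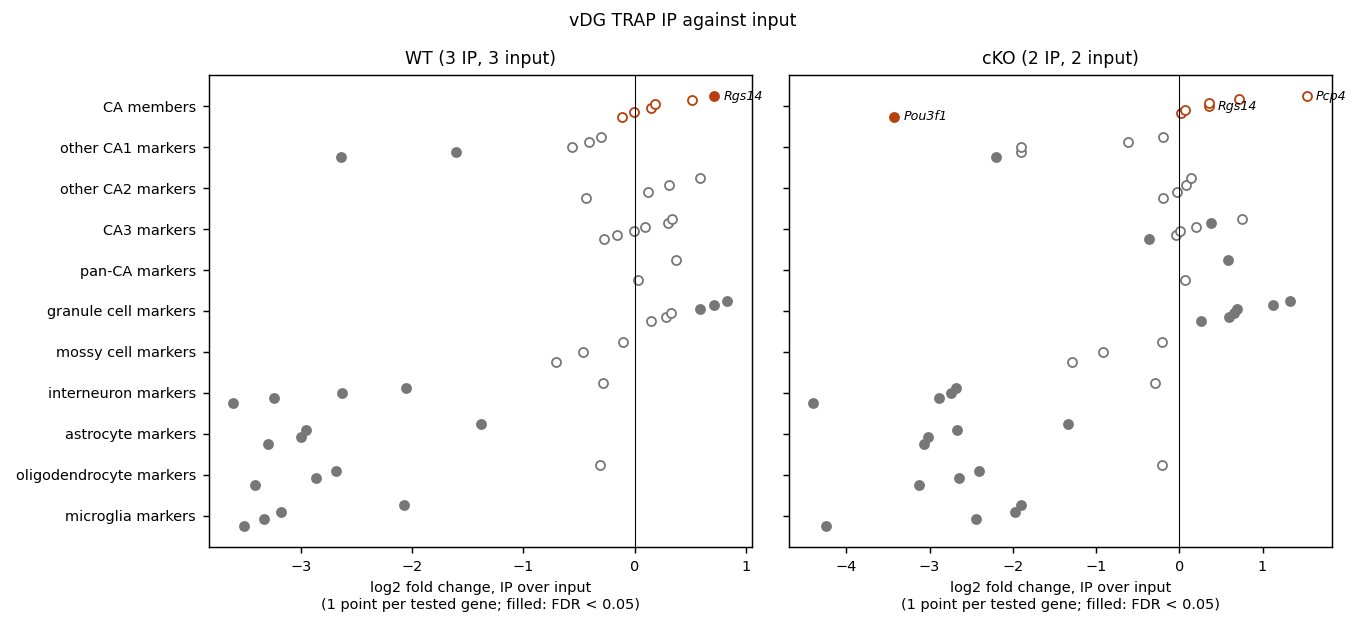
Log2 fold change of IP over input in vDG for each tested gene of the CA marker members and of other marker lists (left WT, right cKO; filled points FDR under 0.05 in edgeR). The members lay between -0.11 and 1.53 except *Pou3f1* at -3.42 in cKO, while most interneuron and glial markers lay below -1.

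The vDG and dDG inputs were compared to see how the levels of CA markers differed between the dissections. *Wfs1* and *Amigo2* were higher in ventral tissue in both genotypes, *Fibcd1* was higher in dorsal tissue in both, and *Rgs14* was higher in ventral tissue in cKO. In WT, 4 of 7 members were called, 2 in each direction, beside 15.3% of 15412 genes. One of the 4 was *Pou3f1*, whose vDG inputs alone would not have passed the filter and whose values are given as a description. In cKO, 4 of 7 were called, beside 17% of 15505 genes, 3 higher and 1 lower in vDG. The median log2 fold changes of the members were -0.23 in WT and 0.26 in cKO, against -0.01 and 0.01 over all genes.

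The largest difference towards vDG was that of *Amigo2*. Beside the vDG inputs given above, it was at 4.94, 4.90 and 3.14 CPM in WT dDG inputs and at 3.75 and 3.97 CPM in cKO dDG inputs, so that every vDG input lay above every dDG input of its genotype. This lack of overlap was found for 31.3% of all genes in WT and 58.2% in cKO. The log2 fold changes were 1.61 (SE 0.20, FDR = 2.16e-05) in WT and 1.36 (SE 0.21, FDR = 0.000116) in cKO, or 3.05-fold and 2.56-fold. Both calls held under every alternative run.

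*Wfs1* was at 16.1, 16.8 and 15.5 CPM in WT dDG inputs and at 10.7 and 15.3 CPM in cKO dDG inputs, all below the vDG inputs of the same genotype. Its log2 fold change was 0.83 (SE 0.14, FDR = 0.000562) in WT and 0.73 (SE 0.17, FDR = 0.00595) in cKO. Without cKO dDG input 1 the difference in cKO was 0.48 and was not called (FDR = 0.103).

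*Fibcd1* went the other way. It was at 12.6, 6.24 and 6.15 CPM in WT dDG inputs, where input 1 stood apart, and at 4.68 and 4.91 CPM in cKO dDG inputs. It fell in WT vDG by 1.77 on the log2 scale (SE 0.33, FDR = 0.00125) and in cKO vDG by 0.95 (SE 0.28, FDR = 0.0218). In WT the call held without dDG input 1, with a log2 fold change of -1.36 (FDR = 0.00652). In cKO the call was lost in DESeq2 (FDR = 0.0600), with all 6 groups in one fit (FDR = 0.157), without vDG input 1 (FDR = 0.114) and without dDG input 2 (FDR = 0.104).

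*Pou3f1* gave 60, 40 and 50 counts in WT dDG inputs, or 2.69, 1.98 and 1.64 CPM, and 1.07, 0.309 and 0.512 CPM in WT vDG inputs. Of the WT inputs, 2 of 3 in vDG and 3 of 3 in dDG were over the limit of the filter, which asked for 3 libraries, so that the vDG inputs alone would not have passed. The log2 difference was -1.74 (SE 0.46, FDR = 0.0145). It was no longer past the threshold without vDG input 2 (FDR = 0.0776), without vDG input 3 (FDR = 0.0622) or without dDG input 1 (FDR = 0.0510). In cKO it was at 1.80 and 1.87 CPM in dDG inputs and at 0.951 and 1.43 CPM in vDG inputs, a log2 difference of -0.62 (SE 0.40) that was not called (FDR = 0.319).

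*Rgs14* was at 23.1, 17.6 and 16.8 CPM in WT dDG inputs, overlapping the WT vDG inputs, with a log2 difference of -0.23 (SE 0.15, FDR = 0.357). In cKO dDG inputs it was at 12.7 and 10.2 CPM, below both cKO vDG inputs, and it rose in vDG by 0.71 (SE 0.17, FDR = 0.00513), a call lost without cKO dDG input 2 (FDR = 0.0916). The test of the genotype by region interaction gave a log2 difference of 0.96 (SE 0.23) that was not called (FDR = 0.168). This interaction called no member and 0% of 16306 genes in edgeR, with 1966 genes and 1 member at an unadjusted p under 0.05. In DESeq2 246 genes were called, but 6 of 7 members, *Rgs14* among them, got no adjusted p there. In edgeR *Rgs14* passed without a count filter (FDR = 0.0197).

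*Iyd* and *Pcp4* were not called by region in either genotype. *Iyd* was at 3.77, 5.89 and 4.48 CPM in WT dDG inputs and at 5.19 and 5.75 CPM in cKO dDG inputs. *Pcp4* was at 0.584, 0.792 and 1.54 CPM in WT dDG inputs and at 0.703 and 1.5 CPM in cKO dDG inputs, which was a wider spread than in the vDG inputs.

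Marker lists of other fields were read beside these members, and which cells their transcripts came from was not tested. All 6 CA3 markers had higher values in vDG in both genotypes, 5 of them called in WT and 3 in cKO, with median log2 fold changes of 1.65 and 0.53. In WT *Coch* entered the test through the vDG inputs alone, with 3 of 3 vDG and 2 of 3 dDG inputs over the filter, and was not called. The 6 CA3 markers summed to 552 to 687 CPM in vDG inputs and 212 to 313 CPM in dDG inputs. *Nnat*, which encodes a proteolipid known from development, rose most in both genotypes, by 2.21 in WT (FDR = 3.67e-08) and 2.48 in cKO (FDR = 1.43e-10). The pan-CA markers *Tyro3*, a receptor tyrosine kinase, and *Neurod6* were both higher in vDG in both genotypes, by 1.38 and 1.49 in WT and by 1.24 and 0.55 in cKO.

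For CA1 and CA2 the lists were mixed. Of 5 tested other CA1 markers, 4 had higher values in vDG in WT and 2 in cKO, and 1 was called higher in each. *Nov*, among those 4 in WT, entered that test through the vDG inputs alone and was not called. Of 5 tested other CA2 markers, 4 had lower values in WT and 3 in cKO, with 2 and 1 called lower. The lowest in both genotypes was *Cacng5* (log2 fold changes of -1.27 and -1.51). *Vit*, the highest in both, entered the tests through the vDG inputs alone and was not called. Of the 6 granule cell markers, 3 were called lower in vDG in WT, where all 6 had lower values, and 5 in cKO, where 1 had a higher value. They summed to 1148 to 1342 CPM in vDG inputs and 1731 to 1831 CPM in dDG inputs. Mossy cell markers summed to 69.0 to 88.5 CPM in vDG inputs and 4.25 to 6.09 CPM in dDG inputs, and *Calb2*, which encodes the calcium-binding protein calretinin, was higher in vDG by 5.01 in WT and 5.22 in cKO (FDR = 1.06e-10 and 8.81e-13). *Calb2* made up most of that sum, at 63.6 to 82.3 CPM in vDG inputs and 1.31 to 2.97 CPM in dDG inputs. It was the 1 mossy cell marker called of 3 in WT, where *Drd2* was at 0.77 (FDR = 0.0876) and *Csf2rb2* at 0.98 (FDR = 0.0732). In cKO 2 of 3 were called, of which *Csf2rb2*, at 1.71, entered the test through the vDG inputs alone. Of 5 interneuron markers, 2 were called higher in vDG in each genotype, with *Sst*, the somatostatin gene, at 1.86 and 1.46. Of 4 oligodendrocyte markers, 2 were called lower in vDG in WT and 1 in cKO. Of 4 astrocyte markers, 0 were called in WT and 1 was called lower in cKO, where all 4 had lower values. The part of these cells in the members' values was not tested. Choroid plexus markers summed to 31.7 to 148 CPM in WT dDG inputs and 17.9 to 22.5 CPM in cKO dDG inputs. By region *Ttr* went opposite ways, with a log2 fold change of -4.12 in WT and 1.46 in cKO. Without WT dDG inputs 2 and 3, which held most *Ttr*, the same 4 members were past the threshold in WT, with log2 fold changes of 0.83 for *Wfs1*, 1.4 for *Amigo2*, -2.37 for *Fibcd1* and -2.11 for *Pou3f1*. The lone remaining WT dDG input, which had the highest *Fibcd1*, *Pou3f1*, *Rgs14* and *Amigo2* of the 3, was then assumed to vary like the others.

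**Figure D3:**
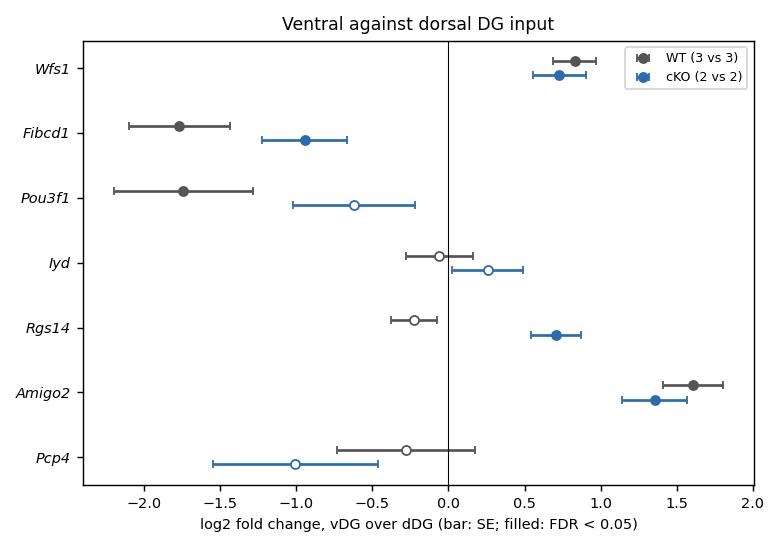
Log2 fold change of vDG over dDG input for each CA marker gene (points with SE bars; grey WT, 3 against 3 libraries; blue cKO, 2 against 2; filled points FDR under 0.05 in edgeR). *Wfs1* and *Amigo2* lay to the right of 0 and *Fibcd1* to the left in both genotypes, and *Rgs14* lay at -0.23 in WT and 0.71 in cKO.

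Loss of functional *Htr4* was compared with WT in each tissue fraction. None of the 7 members was called by edgeR between genotypes in any of the 3 comparisons. Of the CA3 list, *Pvrl3*, which encodes the adhesion molecule nectin-3, fell in the cKO vDG input by 0.59 on the log2 scale (FDR = 0.0252). In the dDG input its log2 difference was 0.61 (SE 0.15, FDR = 0.161) and was not called, although both cKO libraries, at 27.9 and 29.2 CPM, lay above the WT range of 15.9 to 22.2 CPM. The interaction of genotype and region for *Pvrl3* was -1.19 (SE 0.20, FDR = 0.113), also not called. The percent of genes called was 0.42% of 14300 in the IP (at the FDR of 0.1 that the study used there), 2.44% of 15786 in the vDG input and 0.0325% of 15383 in the dDG input. At an unadjusted p under 0.05, edgeR held 2 of 6 tested members in the IP, 3 of 7 in the vDG input and 2 of 7 in the dDG input, beside 1674 of 14300, 2338 of 15786 and 1881 of 15383 genes. DESeq2 called 0, 0 and 1 members, beside 374 of 8825, 620 of 11334 and 182 of 9913 genes. DESeq2 gave no adjusted p for 3, 3 and 4 of the tested members in these comparisons. The groups did not overlap for 4, 5 and 3 members, beside 31.1%, 32.6% and 29.4% of all genes.

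*Amigo2* had lower values in cKO vDG in both fractions, as given above, and the genotypes did not overlap in either. The log2 differences were -0.55 (SE 0.20, FDR = 0.331) in the IP and -0.39 (SE 0.18, FDR = 0.303) in the input. *Wfs1* had a log2 difference of -0.40 in the vDG input (SE 0.16, FDR = 0.213) and of -0.17 in the IP (SE 0.16, FDR = 0.712).

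Markers of other cells also differed between genotypes in the vDG input. The astrocyte list summed to 219 to 245 CPM in WT and 170.0 to 176 CPM in cKO, with lower values in cKO for 4 of 4 genes and 2 called. The microglia list summed to 19.6 to 32.2 CPM in WT and 13.1 to 17.9 CPM in cKO, with lower values for 4 of 4 genes and none called. The granule cell marker *Dsp*, a desmosome gene, fell in cKO by 0.94 (FDR = 0.0156), and *Ttr* rose by 1.11 (FDR = 0.0372). In the IP the interneuron marker *Gad2*, which encodes a GABA-synthesizing enzyme, fell by 0.91 (FDR = 0.0618, under the limit of 0.1). In the dDG input no gene of the following lists was called. The microglia list summed to 21.6 to 39.0 CPM in WT and 19.4 to 19.9 CPM in cKO, with lower values for 4 of 4 genes. All 3 endothelial and 3 tested choroid plexus markers had lower values in cKO, with *Ttr* at -4.48. Of 4 astrocyte markers, 2 had lower and 2 higher values. The part of these cells in the members' values was not tested.

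*Iyd* had higher values in cKO vDG. It was at 7.71 and 6.59 CPM in the cKO IPs and at 7.92 and 5.21 CPM in the cKO inputs, all above the WT libraries of the same fraction. The log2 differences were 0.74 (SE 0.26, FDR = 0.311) in the IP and 0.55 (SE 0.23, FDR = 0.246) in the input, both short of the threshold.

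In the dDG input the lowest FDR was that of *Rgs14*. Both cKO libraries lay below all 3 WT libraries, and the log2 difference was -0.74 (SE 0.18, FDR = 0.157). It passed the threshold in DESeq2 (FDR = 0.0314), in edgeR without a count filter (FDR = 0.00376) and with a replicate block (FDR = 0.0424). Without WT dDG input 1 the difference was -0.58 (FDR = 0.148). *Fibcd1* had a log2 difference of -0.79 (SE 0.29, FDR = 0.290). It passed without a count filter (FDR = 0.0277), and without WT dDG input 1 this was -0.37 (FDR = 0.468). Without WT dDG inputs 2 and 3, the *Rgs14* difference was -1.0 (FDR = 3.18e-05) and that of *Fibcd1* -1.38 (FDR = 7.89e-07), with 1 WT library left. That library, WT dDG input 1, was the highest of the 3 for both genes, at 23.1 CPM against 17.6 and 16.8 CPM for *Rgs14* and at 12.6 CPM against 6.24 and 6.15 CPM for *Fibcd1*.

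**Figure D4:**
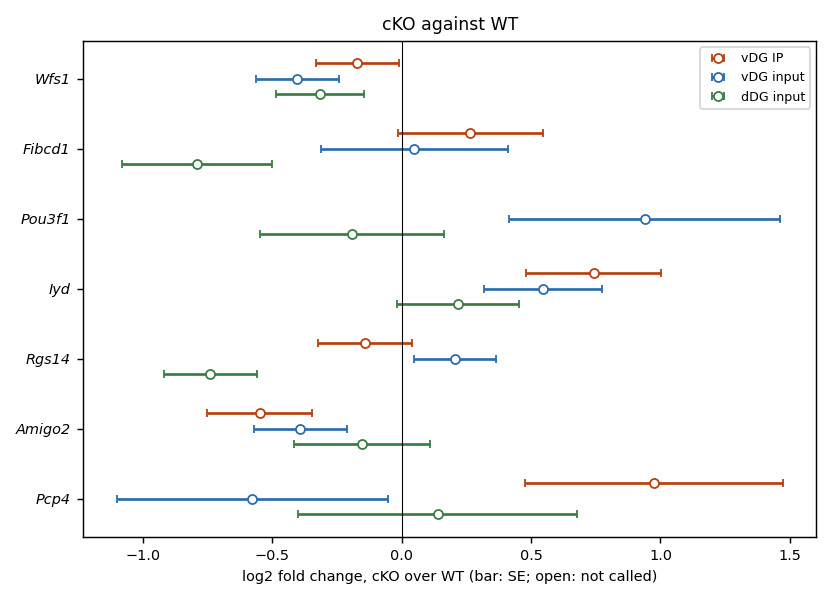
Log2 fold change of cKO over WT for each CA marker gene in the vDG IP, the vDG input and the dDG input (points with SE bars; all points are open because none was called by edgeR). *Iyd* lay between 0.22 and 0.74 and *Amigo2* between -0.55 and -0.16, and *Pou3f1* was not tested in the IP.

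Over the groups, the members followed different orders. *Amigo2* ran from WT vDG IP (15.2 ± 0.917 CPM) over WT vDG input (13.1 ± 1.07), cKO vDG IP (10.4 ± 2.16) and cKO vDG input (9.92 ± 1.31) to WT dDG input (4.33 ± 1.03) and cKO dDG input (3.86 ± 0.159; SD throughout, n = 3 in WT and 2 in cKO). The 2 cKO vDG groups overlapped, as did the 2 dDG groups. *Wfs1* had the same regions on top, and its 3 highest groups overlapped from neighbour to neighbour. *Fibcd1* was highest in WT dDG input (8.32 ± 3.68 CPM) and lowest in WT vDG input (mean 2.42 CPM), which overlapped the cKO vDG input (mean 2.49 CPM). *Iyd* showed overlap between all neighbours in its order.

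Correlations over the 15 libraries, which share region, fraction and genotype within groups, are given as a description. Log2 CPM of *Wfs1* and *Amigo2* had a Pearson r of 0.94, and *Wfs1* and *Pou3f1* one of -0.85. *Wfs1* and *Fibcd1*, both listed for CA1, had an r of -0.49. The genes most like each member among genes with a mean of at least 1 CPM were named by Pearson r. They were *Syna* (0.96), *Atp2b4* (0.96) and *Lynx1* (0.96) for *Wfs1*, and *Klf13* (0.92), *Grik3* (0.92) and *Npnt* (0.90) for *Fibcd1*. For *Pou3f1* they were *Pcgf6* (0.97), *Bmp6* (0.97) and *AK137423* (0.97).

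*Amigo2* was closest to *Esyt3* (0.98), *Gpr161* (0.98) and *Zfp423* (0.98), and *Rgs14* to *Lars2* (0.92), *Pde7b* (0.89) and *Eid2* (0.89). *Iyd* was closest to *Fam221b* (0.84), *Zfp202* (0.83) and *Uchl3* (0.83), and *Pcp4* to *Xxylt1* (0.88), *Fbxl12os* (0.80) and *Osbpl5* (0.79). No CA member was among the genes most like another member. *Pou3f1* and *Pcp4*, with means of 0.975 and 0.960 CPM over all libraries, lay under the limit of 1 CPM and could not be named.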

How the data were processed

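Per the authors, trimmed paired-end reads were aligned to mm10 with STAR 2.4.2a, freed of duplicates with SAMtools 0.1.19-444 and counted on genes with HTSeq in union mode, and the deposited values are raw integer counts per gene without normalization. Removal of duplicates after amplification can compress high counts, and no molecular identifiers are named. Reads without a feature (11.3 to 18.7%) and ambiguous reads (2.50 to 8.60%) stayed out of library sizes. The authors' tables of comparisons (normalized values, fold changes, p-values) were not used here.

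Groups were taken from the sample titles. Whether pools with the same number share animals is not stated, so p-values measure the spread between these libraries. The rule for the members uses no measured value, but members and lists were chosen with earlier results of these data known. Levels are CPM scaled by TMM over all 15 libraries. Each comparison was fitted on all genes kept by filterByExpr, over the libraries compared, with the two-sided quasi-likelihood F-test of edgeR 4.0.16 (R 4.3.3, limma 3.58.1), with Benjamini-Hochberg adjustment of all p-values of a comparison to FDRs. Genes were called at an FDR under 0.05, and between genotypes in the IP under 0.1. SE were derived from the F statistics. Log2 CPM used a prior count of 2. DESeq2 1.42.0, other scalings, filters, fits and libraries left out served as alternatives, of which leaving out WT dDG inputs 2 and 3 together was chosen after seeing the data. Scripts were tested on simulated data. Summaries were made with pandas 2.3.3 and figures with matplotlib 3.10.9 in Python 3.11.15.

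The genes named are the 7 members, the 3 genes most like each by Pearson r, and from each marker list those with the largest fold change in each direction. *Spink8* (1 of 2 genes called in its list), *Htr4*, *Igsf5*, *Pced1b*, *Gm2164* and *Pvrl3*, and *Cpne4*, *Prox1*, *Ttr* and *Trhr* where they were not such a gene, were named outside this rule, with values seen.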

Additional observations from a re-analysis of the deposited data

How the results depend on the processing

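Leaving out 1 library at a time, no member was called between genotypes or in either interaction, the *Rgs14* call in the WT IP held, and so did the *Amigo2* calls by region. Members called ranged from 1 to 3 for IP against input in WT (with 2431 to 4225 genes called), from 0 to 2 in cKO, and from 2 to 4 for region in cKO. In WT *Pou3f1*, which failed the main filter, was among the members called when any IP or vDG input 2 was left out. It was also among those called by DESeq2, without a count filter and with all 6 groups in one fit. Genes called ranged from 2252 to 4344 for the cKO IP against input, from 1428 to 3084 for region in cKO, from 0 to 184 between genotypes in the IP, from 6 to 638 in the vDG input, from 0 to 130 in the dDG input and from 0 to 48 for the region interaction. A group left with 1 library was assumed to vary like the others. DESeq2 called 2 members and 4144 of 18368 genes in the WT IP against input. Between genotypes it called 374 genes in the IP, 620 in the vDG input, and 182 of 9913 genes and 1 member in the dDG input. In the region interaction it called 246 genes. Without a count filter, 2 members and 4524 of 21740 genes were called in the WT IP against input. Between genotypes 379 genes then passed in the IP, 660 in the vDG input, and 378 of 21685 genes and 2 members in the dDG input. In the interactions 362 genes and 1 member passed for region, and 12 genes for fraction. With all 6 groups in one fit, 2 members were called in each IP against input, beside 5069 (WT) and 4303 (cKO) of 16493 genes, 1366 genes for region in cKO, and 465, 224 and 0 genes between genotypes in IP, vDG input and dDG input. Library size alone gave 115 genes in the IP between genotypes. Without WT dDG inputs 2 and 3 together, 1111 genes and 2 members were called between genotypes in dDG. The 5 genes called between genotypes in the dDG input and the 60 in the IP thus changed with these settings, and the cause was not tested.

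Differences that changed sign were never called. Leaving out libraries moved *Pcp4* from -0.22 to 0.19 and *Iyd* from -0.20 to 0.057 in the WT IP, *Iyd* from -0.20 to 0.41 and *Amigo2* from -0.17 to 0.22 in the cKO IP, *Iyd* from -0.20 to 0.12 and *Pcp4* from -0.55 to 0.24 by region in WT, and *Iyd* from -0.090 to 0.52 in cKO. Between genotypes it moved *Rgs14* from -0.26 to 0.0034 in the IP, *Fibcd1* from -0.29 to 0.57 in the vDG input, and *Pou3f1* from -0.35 to 0.030 and *Pcp4* from -0.47 to 0.67 in the dDG input. In the fraction interaction it moved *Pou3f1* from -4.49 to 1.26, *Fibcd1* from -0.28 to 0.56, *Amigo2* from -0.37 to 0.053 and *Iyd* from -0.061 to 0.54, and in the region interaction *Wfs1* from -0.35 to 0.17 and *Iyd* from -0.026 to 0.59. *Pcp4* in the WT IP was at 0.024 with DESeq2, 0.024 with its size factors, 0.017 without a filter and 0.021 with all groups. In the cKO IP, library size alone gave -0.095 for *Iyd* and -0.15 for *Amigo2*, and 10 counts in every library gave -0.028 for *Amigo2*. Without WT dDG inputs 2 and 3, *Iyd* was at 0.26 and *Pcp4* at 0.47 by region.

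Replicate numbers were not taken to pair the libraries, because same-numbered deviations correlated from -0.33 to 0.46 between WT IP and input and from -0.11 to 0.38 between WT regions. In cKO, where 2 libraries a group give both pairs the same value, they correlated at 0.44 between IP and input and 0.16 between regions. The methods take the input from the lysate before the pull-down, but the records give unlike pool sizes for IP and input. With a replicate block, 3 members (*Pou3f1*, *Wfs1* and *Rgs14*) and 5715 of 15126 genes were called in the cKO IP against input. The block also called 137 of 15383 genes and 1 member (*Rgs14*) between genotypes in the dDG input, and 8 genes in the region interaction. *Fibcd1* between genotypes in the vDG input was then at -0.16. Depth limits *Pou3f1* and *Pcp4*, with at most 60 and 47 counts in a library. Spearman in place of Pearson kept 0 to 2 of the 3 genes most like each member.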
